A study of Mus musculus with 30 samples.

Results

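The fasting response of epididymal white adipose tissue (WAT), the fat pad beside the testis, was measured in male C57Bl/6 mice (C57Bl/6 J per the methods) of 10 to 12 weeks. Of the 30 arrays of the series, 10 are from WAT and were chosen by their tissue and diet labels, with liver (LIV) and skeletal muscle (SM) as the other tissues. In the fasted group (5 mice) food was withdrawn for 24 h from the start of the light phase, and the fed group (5 mice) had free access to chow over the same 24 h. Each array holds the RNA of 1 mouse, the labels name no mutation and no agent in either group, and 1 sex, 1 strain, 1 fat depot and 1 time point limit what the groups stand for. All 28815 probe sets were tested, and 18781 genes are described through 1 probe set each. Values are log2 signals, a change is fasted minus fed on the log2 scale with the SE of the fit (5 fasted against 5 fed arrays), and a gene is said to rise or fall only if its adjusted p was under 0.05 and its change at least 1.3-fold. Levels are compared between arrays for 1 gene at a time, never between genes.

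White adipocytes store triglyceride in 1 large droplet after a meal and release fatty acids and glycerol when insulin falls and catecholamines, glucocorticoids and natriuretic peptides act on them. The same cells are endocrine: they secrete leptin, which reports the size of the fat store to the brain, and many other factors. Around them lie capillaries, macrophages, fibroblasts, mesothelium and nerve endings, whose RNA is part of every value given here. In such bulk samples, fewer cells of a type and less RNA per cell cannot be told apart.

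In fasted WAT 1501 genes rose (7.99% of 18781) and 1455 fell (7.75%), so 15.7% were called and these shares are the background for every list below. At least 2-fold changes were seen in 174 genes that rose and 190 that fell, and at least 4-fold changes in 19 of the rises and 19 of the falls. The median change over all genes was 0.005. The arrays were quantile normalised, so a shift of all genes together could not show in this median. For 2437 of the called genes the 5 fasted and the 5 fed arrays did not overlap, and for 519 they did. Over all 18781 genes, 21.6% had fasted and fed arrays that did not overlap. Among probe sets, 1996 rose and 1796 fell (13.2% called).

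The largest rise was that of Zim1, an imprinted zinc finger gene, and the largest fall that of Asb12, which encodes a protein of the ankyrin repeat and SOCS box family. Zim1 read 5.00, 4.65, 5.01, 5.90 and 5.15 in the fed mice and 9.41, 9.21, 9.37, 10.14 and 9.80 in the fasted mice. Asb12 read 8.07, 8.40, 7.76, 7.66 and 8.21 in the fed mice and 3.36, 3.58, 3.78, 3.15 and 3.59 in the fasted mice, where it was dim (a group mean under 3.53 is called dim here). The groups were far apart for both. Zim1 rose by 4.44 ± 0.18 (21.8-fold). The measured change of Asb12 was −4.53 ± 0.13, and with fasted values under the dim limit raised to it, Asb12 was at least 21.4-fold lower. Irf4, a transcription factor of immune cells and adipocytes, came after Zim1 with a rise of 3.82 ± 0.20 (14.1-fold). Irf4 read 5.90, 6.13, 6.21, 6.23 and 6.24 in the fed mice and 10.18, 9.75, 9.61, 11.03 and 9.22 in the fasted mice, highest on fasted array 4. The next largest rises were those of Mc5r, Thbs2, Ddit4, Depp1 and Pdk4, and the next largest falls those of Scd2, Slc25a10, Lrrc39, Trabd2b and Pnpla3.

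**Figure D1:**
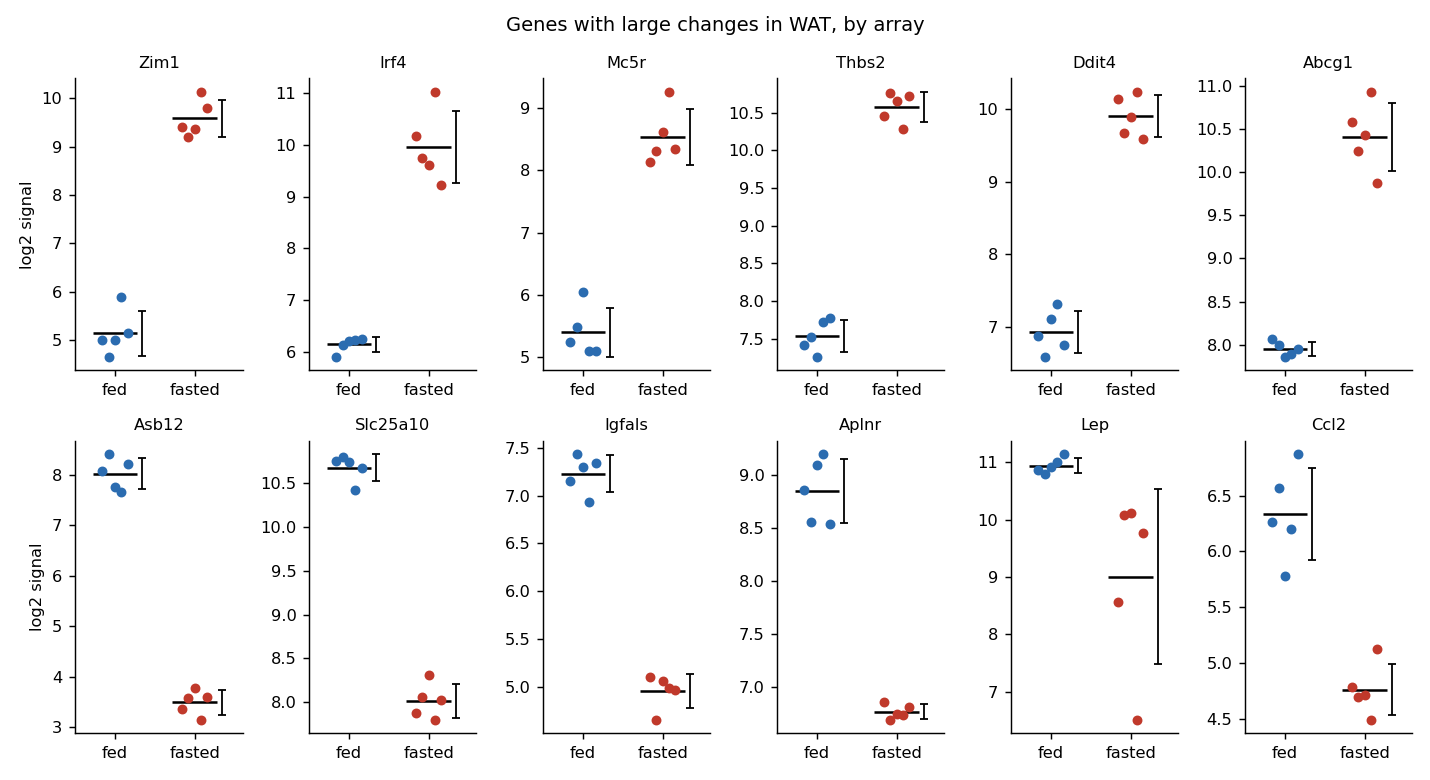
Log2 signal (y axis) of 12 genes with large changes in each of the 5 fed (blue) and 5 fasted (red) WAT arrays, with the group mean as a bar and the SD of the 5 arrays as the error line. In every panel the fed and fasted points do not overlap, but all genes shown other than Ccl2 were picked from genes without overlap. Lep has the widest scatter, with fasted arrays from 6.51 to 10.11.

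Correlations over all probe sets lay between 0.9934 and 0.9969 among fed arrays, between 0.9931 and 0.9967 among fasted arrays and between 0.9852 and 0.9909 across the groups. The labelled tissue matched its markers, since the mean of 9 adipocyte markers lay between 11.30 and 11.99 on the WAT arrays, between 8.29 and 10.05 in SM and between 5.40 and 5.94 in LIV. This mean was lower in every fasted array (11.30 to 11.69 against 11.78 to 11.99), and the 2 members that fell were Lep and Slc2a4. The 7 members that were not called (Adipoq, Plin1, Cidec, Fabp4, Lipe, Pnpla2 and Retn) had means of 12.18 to 12.41 in fed and 12.29 to 12.55 in fasted WAT. Markers of epididymis and testis (11 genes) stayed between 3.37 and 3.51, and 6 of them were dim in both groups. The spread was estimated over all 3 tissues, and SEs of single genes could differ from those of a fit of the 10 WAT arrays alone. For Adipoq the SE was 0.28 here and 0.07 with the WAT arrays alone, for Lep it was 0.56 in both and for Hcar2 0.1 and 0.13.

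Of the other cell type lists, the means of endothelial markers, proliferation genes, brown and beige adipocyte markers and the 3 measured erythrocyte genes separated fed from fasted arrays. The mean of 14 endothelial markers was 9.39 to 9.56 in fed and 9.61 to 9.84 in fasted WAT, and 3 of them rose: Sox17 (1.01 ± 0.10) and Sox18 (0.51 ± 0.10), transcription factors of vessels, and Eng (0.74 ± 0.08), a TGF-beta co-receptor of endothelium. The mean of 26 proliferation genes was lower in every fasted array (4.77 to 5.06) than in every fed array (5.14 to 5.47), 9 of them fell and 0 rose. Mki67, expressed in cycling cells, read 5.61, 5.85, 6.25, 5.61 and 5.74 in the fed mice and 5.02, 4.56, 4.73, 5.30 and 5.34 in the fasted mice, a change of −0.82 ± 0.13. Ccna2 (cyclin A2, −0.70 ± 0.11) and Aurkb (Aurora kinase B, −0.66 ± 0.11) fell with it.

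The macrophage marker mean overlapped between the groups. It ranged from 7.87 to 7.97 in fed and from 7.70 to 8.35 in fasted WAT, and of 13 genes 4 rose and 2 fell. Cd163, the scavenger receptor for haemoglobin complexes, read 7.44, 7.42, 7.46, 7.54 and 7.16 in the fed mice and 8.14, 8.70, 8.63, 8.62 and 8.60 in the fasted mice, a rise of 1.13 ± 0.17, and glucocorticoids are known to raise it in macrophages. Fcgr1, a high-affinity Fc receptor that interferon induces, fell by 0.62 ± 0.11. Adgre1 changed by −0.17 ± 0.16 and Mrc1 by −0.22 ± 0.12, and neither was called. The means of lymphocyte, mast cell and neutrophil, pericyte, fibroblast, mesothelial and Schwann cell markers overlapped between the groups. Rgs5, a pericyte marker, fell by 0.83 ± 0.12, and Pmp22, a myelin protein gene that other cells also express, fell by 0.89 ± 0.21. Skeletal muscle markers lay between 4.41 and 4.93 in WAT against 12.27 to 12.47 in SM, and Acta1, the skeletal muscle actin, was the 1 member that rose (1.53 ± 0.21). The 15 brown and beige adipocyte markers had a lower mean in every fasted array (4.57 to 4.74 against 4.79 to 4.89), with falls of Cidea (−1.08 ± 0.14), Cox8b (−1.07 ± 0.11) and Cox7a1 (−0.99 ± 0.08). The other 12 were not called, the median change of the list was 0.04 and Ucp1 was dim in both groups.

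**Figure D2:**
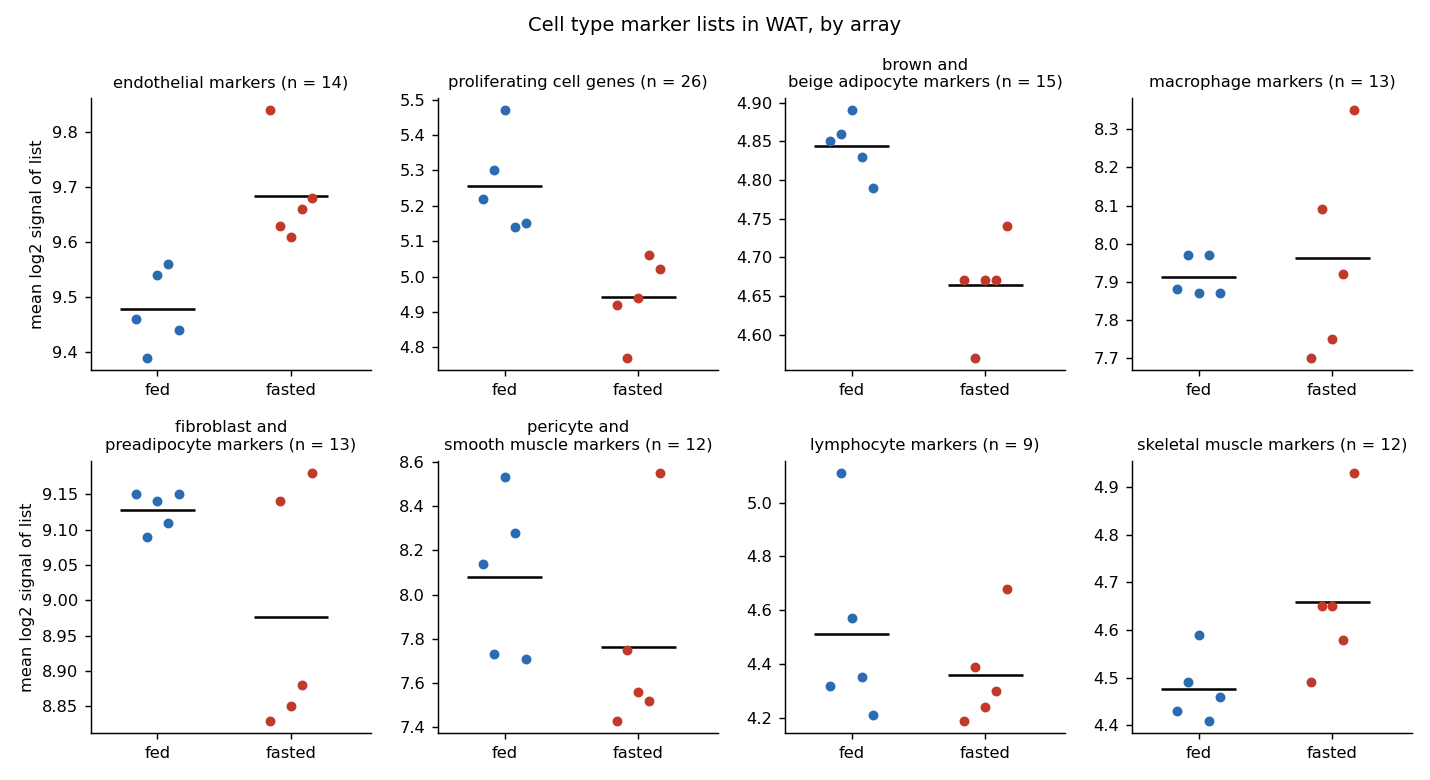
Mean log2 signal of 8 cell type marker lists (one panel each, y axis) in the 5 fed (blue) and 5 fasted (red) WAT arrays, points being arrays and bars group means. Endothelial markers were higher and proliferation genes lower in every fasted array, whereas macrophage, fibroblast and pericyte markers overlapped.

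Among hormones made by fat, leptin fell, while adiponectin, resistin, Rbp4 and Nampt were not called. Cfd (adipsin) and Rarres2 (chemerin) were not among the measured genes. Of 43 measured adipokine and hormone genes, 4 rose and 6 fell. Lep, which encodes leptin, read 10.87, 10.79, 10.92, 11.01 and 11.14 in the fed mice and 8.57, 10.08, 10.11, 6.51 and 9.77 in the fasted mice. Every fasted array was below every fed array, but the fasted mice differed widely among themselves (SD 1.53 against 0.13), and the change was −1.93 ± 0.56 (adjusted p = 0.00966). Adipoq (adiponectin, 0.12 ± 0.28), Retn (resistin, 0.07 ± 0.33), Rbp4 (−0.03 ± 0.28) and Nampt (0.06 ± 0.08) were not called.

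Apelin and its receptor fell together. Apln, the gene of this peptide of adipocytes and endothelium that insulin raises, read 7.04, 6.88, 7.26, 6.83 and 6.72 in the fed mice and 5.74, 5.49, 5.83, 5.98 and 5.61 in the fasted mice, a change of −1.22 ± 0.12. Aplnr, its receptor, found mainly on endothelial cells, read 8.85, 8.55, 9.09, 9.19 and 8.53 in the fed mice and 6.86, 6.69, 6.74, 6.73 and 6.81 in the fasted mice, a change of −2.08 ± 0.12 (4.22-fold). Another vasoactive peptide moved the other way: Edn1, the gene of endothelin-1, a vasoconstrictor made by endothelium, read 6.60, 6.77, 6.49, 6.77 and 6.12 in the fed mice and 7.79, 8.01, 7.81, 8.03 and 7.63 in the fasted mice and rose by 1.31 ± 0.12. Adrenomedullin (Adm, 0.64 ± 0.14) rose too, and so did Ramp2, the accessory protein that makes its receptor (0.72 ± 0.09, with a second probe set of the gene at 0.10). Agtr1a, a receptor for angiotensin II, rose by 0.86 ± 0.06, while Agt, the precursor of that peptide, stayed under the minimum fold (0.26 ± 0.07). Several of these genes are expressed in endothelium, whose 14 markers had a higher mean in every fasted array, with 3 up and 0 down, and the part of that shift in the rises was not tested.

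Of the growth hormone and IGF axis, several binding proteins changed, and Igf1 did not reach the minimum fold. Igfals encodes the acid-labile subunit that holds IGFs in a large complex in plasma, and it read 7.15, 7.43, 7.30, 6.93 and 7.34 in the fed mice and 5.11, 4.66, 5.06, 4.99 and 4.97 in the fasted mice, a change of −2.27 ± 0.10. Igfbp3, its partner in that complex, read 7.24, 7.39, 7.51, 6.99 and 7.23 in the fed mice and 8.27, 8.21, 8.76, 8.84 and 8.06 in the fasted mice, a rise of 1.16 ± 0.12. The 2 partners thus changed in opposite directions, with no overlap of the groups in either. Igfbp5 fell by 1.00 ± 0.26, Stc2 (stanniocalcin 2) fell by 0.91 ± 0.16 and Stc1 (stanniocalcin 1) rose by 1.31 ± 0.24. Igf1 itself was lower in every fasted array but under the minimum fold (−0.36 ± 0.08), and Ghr, the growth hormone receptor, changed by −0.17 ± 0.06.

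Ligands of receptor tyrosine kinases fell more often than they rose: of 50 measured, 15 fell and 5 rose, with a median change of −0.25. Angpt1, the ligand that activates the endothelial receptor Tie2, read 7.27, 7.66, 8.03, 7.52 and 7.71 in the fed mice and 5.41, 6.40, 6.48, 5.56 and 6.76 in the fasted mice, a change of −1.52 ± 0.20. Angpt2, its antagonist at the same receptor, fell by 0.97 ± 0.10. Fgf2 read 9.65, 9.40, 9.36, 9.60 and 9.51 in the fed mice and 7.82, 8.42, 8.07, 7.65 and 8.38 in the fasted mice (−1.44 ± 0.17). Hgf, the growth factor of mesenchymal cells that acts on Met, fell by 1.24 ± 0.13 and had fasted values of 4.78, 5.05, 4.99, 4.70 and 5.39. For these 3 ligands the lowest fasted values were on fasted arrays 1 and 4. Efna2 (−1.23 ± 0.11), a membrane-bound ligand of Eph receptors, and Pdgfc (−0.98 ± 0.15) fell as well. Vegfa, the main angiogenic factor of its family, rose by 0.60 ± 0.09, with Kitl (stem cell factor, 0.85 ± 0.09), Efnb1 (0.90 ± 0.09), Pdgfb (0.55 ± 0.11) and Pdgfd (0.48 ± 0.08).

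Guidance cues and their receptors moved in both directions (7 of 48 up, 5 down). Plxnd1, a semaphorin receptor of endothelium, read 10.39, 10.19, 10.25, 10.27 and 10.13 in the fed mice and 8.97, 8.72, 8.89, 8.69 and 9.15 in the fasted mice, a change of −1.36 ± 0.08. Unc5a, a netrin receptor, fell by 1.12 ± 0.10 and Plxna1 fell by 0.72 ± 0.06, while Plxna4 (0.80 ± 0.10) and the ligand Sema3g (0.78 ± 0.09) rose. Dll4, the Notch ligand of endothelial tip cells, read 8.08, 8.18, 8.35, 8.03 and 8.16 in the fed mice and 6.65, 6.76, 7.15, 6.74 and 6.60 in the fasted mice, a change of −1.38 ± 0.10. Of 55 Wnt genes 3 rose (5.5%) and 5 fell (9.1%), and of 38 TGF-beta and BMP genes 3 rose and 3 fell (7.9% each). These shares are near those over all genes. Singly, Axin2, a feedback target of the Wnt pathway, fell by 0.93 ± 0.10, and Nog (noggin, a BMP antagonist) rose by 0.51 ± 0.12.

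Ccl2 and Ccl7, chemokines that recruit monocytes, fell. Ccl2 (MCP-1) read 6.26, 6.57, 5.78, 6.20 and 6.87 in the fed mice and 4.78, 4.69, 4.71, 4.49 and 5.12 in the fasted mice, a change of −1.58 ± 0.15. Ccl7 (MCP-3) read 6.26, 6.54, 6.47, 5.92 and 7.01 in the fed mice and 5.24, 5.27, 5.02, 5.12 and 5.52 in the fasted mice, a change of −1.21 ± 0.14. Neither gene's groups overlapped. Cxcl12, the ligand of Cxcr4 that stromal cells make, rose by 0.74 ± 0.10, and of 36 chemokines 7 rose and 4 fell (2 without fasted array 1 or 3, and 7 without fasted array 5). Of 56 cytokines 1 rose, Clcf1 (0.80 ± 0.15), a ligand of the CNTF receptor, and 3 fell (5 without fasted array 1), among them Csf1 (−0.64 ± 0.11), the growth factor of macrophages, and Tnfsf10 (TRAIL, −0.84 ± 0.12). Tnf was lower in every fasted array but just under the minimum fold (−0.37 ± 0.06), and Il6 was dim in both groups.

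Receptors for peptide hormones and metabolites changed in both directions (10 of 77 up, 8 down). Mc5r, the melanocortin-5 receptor for ACTH and alpha-MSH, which couples to cAMP and is lipolytic in mouse adipocytes, read 5.25, 5.49, 6.05, 5.11 and 5.11 in the fed mice and 8.13, 8.31, 8.62, 9.26 and 8.34 in the fasted mice. This is a rise of 3.13 ± 0.18 (8.76-fold). The receptors for glucagon (Gcgr) and secretin (Sctr), which also couple to cAMP, rose by 1.00 ± 0.10 and 1.00 ± 0.14. Gcgr read 4.68, 4.67, 4.82, 4.64 and 4.81 in the fed mice and 6.08, 5.66, 5.73, 5.90 and 5.26 in the fasted mice. Sctr read 7.26, 7.58, 7.55, 7.83 and 7.54 in the fed mice and 8.70, 8.28, 8.26, 8.86 and 8.62 in the fasted mice, so that neither gene's groups overlapped.

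Hcar1, Hcar2, Ffar2, Cnr1 and Ptger3 couple to Gi, the G protein that lowers cAMP. They were picked singly and no list of Gi-coupled receptors was counted, so their changes do not describe such receptors as a group. Hcar1, the lactate receptor through which lactate restrains lipolysis, read 9.15, 9.33, 9.18, 9.21 and 9.33 in the fed mice and 7.65, 7.50, 7.61, 6.83 and 7.63 in the fasted mice, a change of −1.80 ± 0.20. Its relative Hcar2, the receptor for beta-hydroxybutyrate and nicotinic acid, changed by −0.38 ± 0.10, under the minimum fold. Ffar2, a receptor for short-chain fatty acids, fell by 0.84 ± 0.15, Cnr1, the cannabinoid receptor 1, fell by 0.81 ± 0.08 (named after its value was seen) and Ptger3, the Gi-coupled prostaglandin E2 receptor EP3, fell by 1.44 ± 0.23. Ptger3 read 8.56, 8.89, 8.07, 8.02 and 8.37 in the fed mice and 6.66, 7.58, 7.01, 6.15 and 7.32 in the fasted mice, again lowest on fasted arrays 4 and 1. The Gs-coupled receptor for the same prostaglandin, Ptger2, rose by 0.46 ± 0.07, and Ptges, the enzyme that makes prostaglandin E2, fell by 1.94 ± 0.15 (3.83-fold). Ptges read 9.55, 9.80, 9.55, 9.30 and 9.64 in the fed mice and 7.52, 7.67, 7.52, 7.53 and 7.92 in the fasted mice. Oxtr, the oxytocin receptor, fell by 1.56 ± 0.13, as did Paqr9 (−1.68 ± 0.15) and Paqr7 (−1.34 ± 0.12), of the family of membrane progestin and adiponectin receptors.

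For a few adipocyte genes the call depended on which arrays set the spread. Npr3, the clearance receptor that removes natriuretic peptides, read 11.92, 11.69, 11.74, 11.99 and 11.86 in the fed mice and 10.45, 11.35, 11.32, 9.93 and 11.23 in the fasted mice, a change of −0.98 ± 0.41 that was not called (adjusted p = 0.0822). In the fit of the 10 WAT arrays alone, its SE was 0.24 and its adjusted p 0.00993. Klb, the co-receptor for FGF21, changed by 0.67 ± 0.26 (adjusted p = 0.063, and 0.00218 with the WAT arrays alone), Pde3b, the phosphodiesterase through which insulin lowers cAMP, by 0.51 ± 0.29 (0.225 and 0.00232) and Angptl4, an inhibitor of lipoprotein lipase, by 0.38 ± 0.17 (0.102 and 0.0169). Npr1, the signalling receptor for natriuretic peptides, was higher in every fasted array but under the minimum fold (0.33 ± 0.07).

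Among the other receptor families, Fgfr3 had the largest rise of 53 receptor tyrosine kinases (1.46 ± 0.12). It read 4.68, 4.48, 5.13, 4.69 and 4.64 in the fed mice and 6.25, 6.14, 5.91, 6.30 and 6.33 in the fasted mice. Il6ra, the alpha chain of the interleukin-6 receptor, had the largest rise of the cytokine receptors (1.54 ± 0.11), with values of 8.29, 8.04, 8.08, 8.49 and 8.45 in the fed mice and 9.75, 9.79, 9.86, 10.06 and 9.58 in the fasted mice. Orphan and adhesion G protein-coupled receptors rose more often (13 of 99) than they fell (3, or 6 without fasted array 5), and Gpr160 (1.18 ± 0.10), Adgrg2 (1.01 ± 0.18) and Adgrl3 (0.98 ± 0.10) led. Of the receptors for sphingosine 1-phosphate, S1pr1, of endothelium and lymphocytes, rose by 0.60 ± 0.11 and S1pr3 fell by 0.98 ± 0.16. Of the nuclear receptors, Rxrg fell by 1.03 ± 0.10, Esr1 (oestrogen receptor alpha) fell by 0.59 ± 0.11 and Nr3c1, the glucocorticoid receptor, fell by 0.44 ± 0.05, whereas Vdr (0.60 ± 0.11) and Rora (0.63 ± 0.09) rose.

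**Figure D3:**
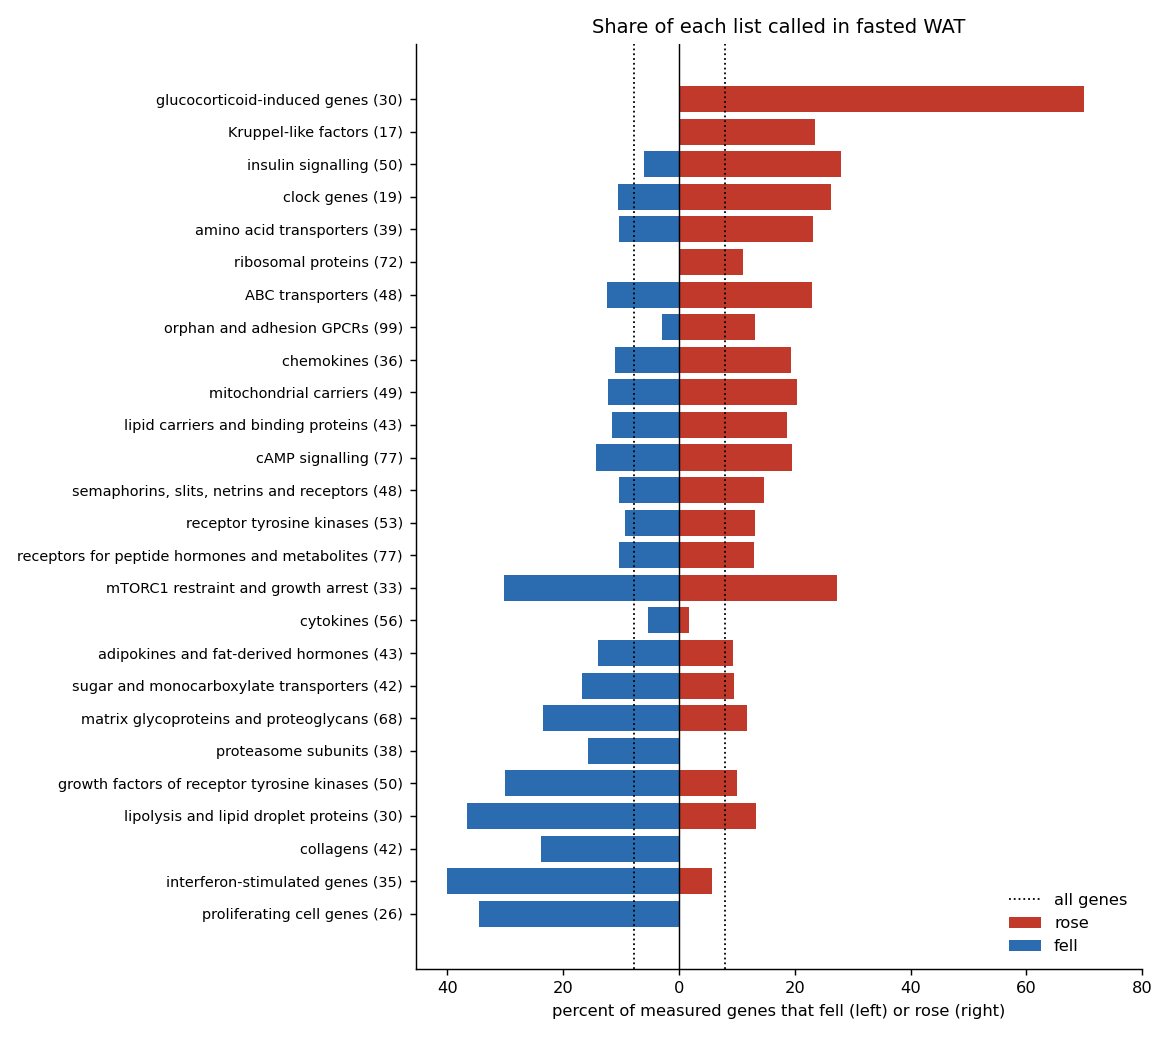
Percent of the measured genes of 26 lists that rose (red, to the right) or fell (blue, to the left) in fasted WAT, with the number of measured genes after each list name. The dotted lines mark the share over all 18781 genes (7.99% up, 7.75% down). Glucocorticoid-induced genes have the longest bar to the right (70.0%) and interferon-stimulated genes the longest to the left (40.0%). The lists were written with earlier results of these data known.

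Of 42 sugar and monocarboxylate transporters 7 fell and 4 rose. Slc2a4 (GLUT4), the insulin-responsive glucose transporter, read 9.88, 9.98, 10.06, 9.73 and 9.87 in the fed mice and 8.63, 8.54, 8.88, 8.79 and 8.92 in the fasted mice, a change of −1.15 ± 0.08. Slc2a13, a proton-coupled myo-inositol transporter, read 8.94, 8.96, 9.14, 8.73 and 8.82 in the fed mice and 6.93, 6.96, 7.03, 6.89 and 7.14 in the fasted mice, a change of −1.93 ± 0.19. Slc5a3, the sodium-coupled myo-inositol transporter, fell by 1.34 ± 0.17. Slc2a5 (a fructose transporter, −0.74 ± 0.18) and Slc2a12 (−0.74 ± 0.12) fell, and Slc2a1 (GLUT1, 0.46 ± 0.12) and Slc2a3 (GLUT3, 0.50 ± 0.13) rose. Of 39 amino acid transporters 9 rose and 4 fell (2 without fed array 3 or fasted array 1, 3 or 4). Slc6a6, the taurine transporter, read 8.34, 8.0, 8.64, 8.51 and 8.41 in the fed mice and 9.50, 9.49, 9.56, 9.73 and 9.88 in the fasted mice (1.25 ± 0.09). Slc7a8 (LAT2), a carrier of neutral amino acids, read 9.18, 9.23, 9.12, 9.38 and 9.23 in the fed mice and 10.05, 10.21, 10.05, 10.63 and 10.33 in the fasted mice (1.02 ± 0.11). Slc43a1 (LAT3, 0.79 ± 0.10) rose, and Slc38a3 (a glutamine transporter, −1.45 ± 0.17) and Slc6a13 (a transporter of GABA and taurine, −1.25 ± 0.18) fell.

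Of 43 lipid carriers and binding proteins 8 rose and 5 fell (3 without fed array 3 or 4 or fasted array 1, 2 or 4). Abcg1, which exports cholesterol from cells to HDL, read 8.07, 8.0, 7.86, 7.89 and 7.95 in the fed mice and 10.58, 10.24, 10.43, 10.93 and 9.87 in the fasted mice, a rise of 2.45 ± 0.12 (5.48-fold). Abcb1b, a multidrug efflux pump, rose by 1.58 ± 0.11, and of 48 ABC transporters 11 rose and 6 fell. Rbp7, a cytosolic retinol-binding protein of fat endothelium and adipocytes, read 6.65, 6.67, 7.24, 6.65 and 7.18 in the fed mice and 9.73, 9.12, 9.17, 9.65 and 8.88 in the fasted mice (2.43 ± 0.15). Npc1, which moves cholesterol out of lysosomes (1.27 ± 0.10), Slc27a1 (the fatty acid transport protein FATP1, 1.18 ± 0.09) and Gpihbp1, which holds lipoprotein lipase on capillaries (0.79 ± 0.09), rose, while Vldlr (−0.73 ± 0.08) and Cav1, the caveolae protein (−0.45 ± 0.12), fell. Lpl (0.04 ± 0.12) and Cd36 (0.18 ± 0.09) were not called.

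Of 49 mitochondrial carriers 10 rose and 6 fell. Slc25a10, the dicarboxylate carrier, had the largest fall of the list, from values of 10.76, 10.80, 10.74, 10.42 and 10.68 in the fed mice to 7.88, 8.06, 8.31, 7.80 and 8.03 in the fasted mice (−2.66 ± 0.19). Slc25a35 (−1.65 ± 0.11) and the citrate carrier Slc25a1 (−1.14 ± 0.18) fell, and Ucp3 (1.01 ± 0.14) and the folate carrier Slc25a32 (0.87 ± 0.11) rose. Of 45 zinc, copper, iron and divalent metal transporters 5 rose and 6 fell. Among genes of metal handling, Steap4, a metalloreductase of adipocytes, fell by 1.47 ± 0.12 and Steap3 fell by 0.98 ± 0.09, while the iron exporter Slc40a1 (ferroportin, 0.88 ± 0.15), the zinc exporter Slc30a1 (0.67 ± 0.09) and the metal-binding protein Mt1 (0.84 ± 0.12) rose. Of 160 aquaporins and ion channels 8 rose (5.0%) and 12 fell (7.5%), under the share over all genes in each direction. Single channels of the vanilloid TRP family changed, Trpv2 (1.37 ± 0.15) and Trpv4 (1.28 ± 0.08) upward and Trpv1, the capsaicin receptor, downward (−1.04 ± 0.10). Trpv4, a channel opened by osmotic and mechanical stimuli, read 6.81, 6.60, 6.92, 6.76 and 6.70 in the fed mice and 7.93, 7.92, 8.09, 8.16 and 8.07 in the fasted mice.

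The matrix lists held falls of collagens and rises of thrombospondins. Of 42 measured collagen chains 10 fell and 0 rose, and the median over the list was −0.08. Col15a1, a collagen of the basement membrane zone, had the largest fall (−2.07 ± 0.17). It read 10.06, 10.00, 9.84, 9.83 and 10.27 in the fed mice and 8.29, 8.08, 8.34, 7.58 and 7.38 in the fasted mice. The 3 main chains of collagen VI, Col6a1 (−0.58 ± 0.11), Col6a2 (−0.76 ± 0.11) and Col6a3 (−0.68 ± 0.12), and the fibrillar chains Col3a1 (−0.76 ± 0.14) and Col5a3 (−0.77 ± 0.10) fell, whereas Col1a1 (−0.26 ± 0.14) and Col4a1 (−0.04 ± 0.09) were not called. Serpinh1 (HSP47), the collagen chaperone of the endoplasmic reticulum, fell by 1.02 ± 0.09, and the procollagen enhancer Pcolce fell by 0.71 ± 0.13. The mean of 13 fibroblast and preadipocyte markers, which include Col1a1 and Col3a1, was 9.09 to 9.15 in fed and 8.83 to 9.18 in fasted WAT, with 2 up and 4 down, and its part in the falls was not tested.

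Thbs2 and Thbs1 encode thrombospondins, matrix proteins that inhibit angiogenesis and, in the case of thrombospondin 1, activate latent TGF-beta. Thbs2 read 7.42, 7.53, 7.26, 7.73 and 7.77 in the fed mice and 10.45, 10.76, 10.66, 10.28 and 10.72 in the fasted mice, a rise of 3.03 ± 0.12 (8.19-fold). Thbs1 read 9.57, 9.69, 9.44, 9.93 and 10.58 in the fed mice and 12.12, 11.98, 12.17, 12.06 and 11.61 in the fasted mice, a rise of 2.14 ± 0.18. Fed array 5 had the highest fed value of Thbs1 and fasted array 5 the lowest fasted one. Lox, which cross-links collagen and elastin, rose by 1.19 ± 0.18, and elastin itself (Eln, 0.90 ± 0.16) and periostin (Postn, 0.95 ± 0.17) rose. Matn2 (matrilin 2, an adaptor between matrix filaments) read 8.37, 8.31, 8.44, 8.15 and 8.27 in the fed mice and 5.73, 6.22, 6.22, 5.92 and 6.43 in the fasted mice, a change of −2.20 ± 0.16. Tenascin C (Tnc, −1.20 ± 0.21), versican (Vcan, −0.93 ± 0.15) and the hyaluronan synthase Has2 (−0.73 ± 0.11) fell. Of the aggrecanases, Adamts4 rose by 1.3 ± 0.12 and Adamts5 fell by 1.1 ± 0.15. Fibronectin (Fn1, −0.02 ± 0.11) and Mmp2 (−0.19 ± 0.13) were not called. Over 68 matrix glycoproteins and proteoglycans, 8 rose and 16 fell.

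Genes that interferon induces fell more often than they rose. Of 35 measured, 14 fell and 2 rose (1 without fed array 3 or 4 or fasted array 1 or 4), and the median change was −0.29 against 0.005 over all genes. Ifit3 read 8.06, 9.14, 8.40, 8.44 and 8.39 in the fed mice and 6.81, 6.95, 7.02, 7.24 and 7.29 in the fasted mice, a change of −1.42 ± 0.16. Guanylate-binding proteins, GTPases that act against intracellular pathogens, fell with it, as for Gbp3 (−1.08 ± 0.11), Gbp7 (−0.91 ± 0.11) and Gbp2 (−0.90 ± 0.15). Gbp3 read 7.14, 7.56, 7.40, 7.52 and 7.49 in the fed mice and 6.32, 6.24, 6.25, 6.36 and 6.55 in the fasted mice. As members of these families resemble each other in sequence, their probe sets may share signal. The transcription factors Irf7 (−0.57 ± 0.13) and Irf9 (−0.49 ± 0.09), which relay the signal of type I interferon, and Iigp1 (−1.01 ± 0.17) fell. The mean of lymphocyte markers, cells that make interferon gamma, ranged from 4.21 to 5.11 in fed and from 4.19 to 4.68 in fasted WAT, and its part in these falls was not tested.

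Many of these genes carry the interferon-stimulated response element (ISRE) near their start. This element has 2 half-sites, GAAA, with 2 bases between them, and was searched on both strands of the RefSeq promoters (GRCm38.p6, 250 bases before to 50 bases after the start site). It was found in 15 of 26 interferon-stimulated genes with a promoter in the table and in 8 of the 12 that fell, against 3.91% of 14723 genes. The list was chosen by response to interferon, so its share against all genes carries no result about fasting. Over all genes that fell the share was 3.83%, and over all that rose 4.23%. The stretches of 4 genes that fell are shown on the strand of the gene, with matches in capitals, which here read in the reverse orientation, so that their common core is visible.
Ifit3: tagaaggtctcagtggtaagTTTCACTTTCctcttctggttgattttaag
Ifit1: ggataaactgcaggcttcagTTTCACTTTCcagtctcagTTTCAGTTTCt
Gbp2: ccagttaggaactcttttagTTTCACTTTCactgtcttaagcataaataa
Gbp7: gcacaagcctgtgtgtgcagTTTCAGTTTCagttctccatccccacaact
The Ifit3 stretch lies at chr19:34583353-34583402, that of Ifit1 at chr19:34640765-34640814, that of Gbp2 at chr3:142620584-142620633 and that of Gbp7 at chr3:142530263-142530312, all on the plus strand. The Ifit1 stretch holds 2 matches. Ifit1 itself fell by 0.66 ± 0.17. A match is a description of the sequence and was not tested as a site.

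Other inflammatory genes moved in both directions. Nfkbia, the inhibitor of NF-kappaB that glucocorticoids induce, read 8.17, 8.22, 8.47, 8.11 and 8.36 in the fed mice and 9.53, 9.40, 9.39, 9.73 and 9.24 in the fasted mice, a rise of 1.19 ± 0.07. Nos2 (inducible nitric oxide synthase) fell by 1.28 ± 0.10, Alox5 (5-lipoxygenase) fell by 0.84 ± 0.15 and Thbd (thrombomodulin, the endothelial cofactor of protein C activation) fell by 1.14 ± 0.13. Lbp, the lipopolysaccharide-binding protein, read 11.14, 10.94, 10.85, 11.14 and 10.90 in the fed mice and 9.20, 9.95, 9.75, 8.57 and 10.01 in the fasted mice, a change of −1.5 ± 0.18. Dhx58, a RIG-I-like receptor gene, fell by 0.76 ± 0.12, while the lectin receptor Clec4d (1.1 ± 0.13) and Cd14 (0.64 ± 0.14) rose.

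In insulin signalling more genes rose (14 of 50) than fell (3). Insr, the insulin receptor, read 9.71, 9.66, 9.68, 9.65 and 9.86 in the fed mice and 10.50, 10.44, 10.37, 10.53 and 10.26 in the fasted mice, a rise of 0.71 ± 0.06 that its second probe set shared (0.61). Irs2, its adaptor, rose by 0.67 ± 0.11, while Irs1 changed by −0.09 ± 0.12 and was not called. Grb14, an adaptor that binds and inhibits the activated insulin receptor, read 8.02, 7.60, 7.94, 8.24 and 8.11 in the fed mice and 5.77, 6.95, 7.02, 5.64 and 6.95 in the fasted mice, a change of −1.52 ± 0.20, lowest on fasted arrays 4 and 1. Its relative Grb10 rose by 0.95 ± 0.11. Several inhibitors of the pathway rose, among them Trib3 (0.95 ± 0.11), Pik3ip1 (0.82 ± 0.11) and Tsc1 (0.47 ± 0.06), and the forkhead factor Foxo3 (0.78 ± 0.07) rose while Foxo1 was not called in WAT (0.06 ± 0.06). Pik3r1, the regulatory subunit of PI 3-kinase, fell by 0.76 ± 0.11.

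Some genes that restrain mTORC1 or growth had large rises. Ddit4 (REDD1), an inhibitor of mTORC1, read 6.88, 6.59, 7.11, 7.32 and 6.76 in the fed mice and 10.14, 9.67, 9.89, 10.24 and 9.59 in the fasted mice, a rise of 2.97 ± 0.19 (7.86-fold). Trp53inp1, a p53-induced protein of autophagy, rose by 2.44 ± 0.12 and Sesn2, a leucine sensor that inhibits mTORC1, by 1.32 ± 0.13. Gadd45b (1.56 ± 0.17), Gadd45g (1.34 ± 0.21) and Cdkn1a (p21, 1.02 ± 0.16) rose. Cdkn2c, an inhibitor of the cyclin D kinases, fell by 1.69 ± 0.12, and over the list 9 of 33 genes rose and 10 fell.

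Around cAMP, 15 of 77 genes rose and 11 fell. Rgs2, which shortens signals through Gq and Gs coupled receptors, read 7.19, 7.93, 8.08, 7.13 and 7.01 in the fed mice and 9.45, 9.42, 9.66, 10.27 and 9.71 in the fasted mice (2.23 ± 0.22). Arrdc3, an arrestin-like protein that binds beta-adrenergic receptors, rose by 1.70 ± 0.12 and Arrdc2 by 1.45 ± 0.12. The phosphodiesterase Pde4d (1.09 ± 0.17), highest on fasted arrays 4 and 1, and the kinase Sik1, a target of CREB (0.87 ± 0.12), rose. Gng7, a G protein gamma subunit, fell by 1.12 ± 0.11 and Rasd1, a small GTPase that glucocorticoids induce in other cells, fell by 2.05 ± 0.22. Rasd1 read 9.29, 8.64, 9.23, 9.76 and 9.41 in the fed mice and 7.63, 7.11, 6.97, 6.98 and 7.38 in the fasted mice. Of the ubiquitin ligase subunits, Fbxo31 (1.89 ± 0.12), Fbxo21 (1.26 ± 0.09) and Fbxo32 (atrogin-1, 0.78 ± 0.11) rose. Map3k6 rose by 1.61 ± 0.10, Myc by 1.00 ± 0.21, and Stat3 by 0.57 ± 0.08, while Map2k6 fell by 1.1 ± 0.10.

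Of the transcriptional lists, glucocorticoid-induced genes had the largest share of rises: 21 of 30 rose and 0 fell, with a median of 0.81. Fkbp5, a chaperone partner of the glucocorticoid receptor, read 7.45, 7.74, 8.37, 7.30 and 7.15 in the fed mice and 9.07, 9.54, 9.45, 9.47 and 9.31 in the fasted mice (1.77 ± 0.16). Sgk1, a kinase of salt transport and survival, read 7.66, 7.35, 7.64, 7.83 and 7.30 in the fed mice and 9.10, 9.14, 8.90, 9.12 and 9.05 in the fasted mice (1.5 ± 0.09). The fasted values of both were alike on the 5 arrays, and fed array 3 had the highest fed value of Fkbp5. Fam107a, an actin-associated protein gene, rose by 1.99 ± 0.18. Tsc22d3 (GILZ, 1.16 ± 0.11), Cebpd (1.75 ± 0.13), Klf9 (0.75 ± 0.06, with 0.33 on its second probe set) and Klf15 (0.69 ± 0.11) rose, and Nr3c1, the receptor itself, was lower (−0.44 ± 0.05). All of these genes have other inducers too, and the list was written with earlier results of these data known. Its counts carry no test. Rasd1, described above as induced by glucocorticoids in other cells, is not on the list and fell by 2.05 ± 0.22.

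Imprinted genes changed in both directions. Peg3, which is expressed from the paternal allele, lies beside Zim1 on chromosome 7 and read 8.47, 8.47, 8.35, 9.12 and 9.16 in the fed mice and 11.45, 11.26, 11.29, 11.40 and 11.17 in the fasted mice (2.60 ± 0.24). Peg10 (1.38 ± 0.19) rose, and Mest (−1.02 ± 0.21), which follows the expansion of adipocytes, and Ndn (necdin, −1.02 ± 0.13) fell. Usp29, also in the Peg3 domain and named after its value was seen, changed by 0.03 ± 0.08 and was not called. Of the Kruppel-like factors, Klf4 rose by 1.07 ± 0.16, and the list held 4 rises and 0 falls among 17. Srebf1, the activator of lipogenic genes, fell by 1.59 ± 0.15, while Pparg (0.10 ± 0.19) and Cebpa (−0.06 ± 0.22), which hold the adipocyte state, were not called. Egr1 fell by 0.91 ± 0.22, Maff rose by 1.25 ± 0.15, and Fos was not called (0.36 ± 0.25).

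Of 19 clock genes 5 rose and 2 fell. Per1 read 8.31, 7.91, 8.45, 8.59 and 8.25 in the fed mice and 9.75, 9.67, 9.54, 9.70 and 9.48 in the fasted mice, a rise of 1.33 ± 0.13. Per2 (0.77 ± 0.18), Cry1 (0.55 ± 0.17) and Npas2 (0.88 ± 0.22) rose, whereas Bhlhe40 (−1.06 ± 0.14) and Bhlhe41 (−0.79 ± 0.16), repressors of the clock, fell. Per1 is both a clock gene and a target of glucocorticoids, and the arrays hold 1 time of day, so a change of level and a shift of phase cannot be told apart. The E-box CACGTG, which reads the same on both strands and is bound by the clock activators, is in 5 of 16 clock promoters and in 9.57% of all genes. Over all genes that rose the share was 12.7%, and over all that fell 10.2%. Among the clock genes, Bhlhe41, which fell, also carries it. The E-box is shown in capitals in the promoters of the period and cryptochrome genes that rose and carry it, and it was not tested as a site.
Per1: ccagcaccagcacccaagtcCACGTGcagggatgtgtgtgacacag
Cry1: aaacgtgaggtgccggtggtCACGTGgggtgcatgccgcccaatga
The Per1 stretch lies at chr11:69098763-69098808 on the plus strand and the Cry1 stretch at chr10:85185089-85185134 on the minus strand (GRCm38.p6).

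Probe sets of miRNA genes were measured too, although this array does not tell the precursor from a host transcript and does not measure the mature miRNA. Of 278 miRNA genes with a sequence in the RefSeq table, 15 rose and 6 fell. In each direction this is under the share over all genes (7.99% up and 7.75% down). The genes named here were chosen after their values were seen. Mir30a and Mir30c-2, which lie close together on chromosome 1, rose by 1.11 ± 0.15 and 1.12 ± 0.15, and Mir708 fell by 1.44 ± 0.15. Mir34a, a target of p53, rose by 0.81 ± 0.07 from dim fed values (at least 1.08-fold against the dim limit). The mature 5p sequences (RefSeq, GRCm38.p6) show which of these genes share a seed and are given with the seed (bases 2 to 8) in capitals.
miR-30a-5p: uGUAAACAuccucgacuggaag
miR-30c-5p: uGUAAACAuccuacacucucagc
miR-34a-5p: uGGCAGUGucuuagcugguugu
miR-708-5p: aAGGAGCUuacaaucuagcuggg
The miR-30 products share 1 seed, and the miR-34a and miR-708 seeds differ from it and from each other. Mir30a read 4.44, 4.84, 4.70, 4.62 and 5.15 in the fed mice and 5.86, 5.16, 6.13, 6.26 and 5.90 in the fasted mice. Mir708 read 6.81, 6.94, 6.77, 7.01 and 7.09 in the fed mice and 5.99, 4.98, 5.65, 5.06 and 5.73 in the fasted mice. The groups did not overlap for either, although the highest fed and the lowest fasted value of Mir30a nearly met. Of the rest of the miR-30 family, Mir30b rose (0.49 ± 0.12), and Mir30d (0.18 ± 0.07), Mir30e (0.18 ± 0.14) and Mir30c-1 (0.04 ± 0.07) were not called.

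Of 30 genes of lipolysis and the lipid droplet 11 fell and 4 rose. The genes named next have opposing roles in triglyceride storage and release, so these counts give no direction for lipolysis. Pnpla3 fell by 2.59 ± 0.23, G0s2, the inhibitor of the triglyceride lipase ATGL, fell by 1.35 ± 0.27 and Dgat2, which makes triglyceride, fell by 1.65 ± 0.20. Plin5 rose by 1.04 ± 0.09. Pnpla2 (ATGL) was higher in every fasted array but under the minimum fold (0.35 ± 0.08), and Lipe was not called (0.02 ± 0.15). Pdk4, a kinase that shuts off pyruvate oxidation, read 8.85, 9.22, 9.00, 9.19 and 8.94 in the fed mice and 11.73, 11.85, 11.81, 11.64 and 11.55 in the fasted mice, a rise of 2.67 ± 0.12, and its relative Pdk2 rose by 1.5 ± 0.06. Ahcy, which cleaves S-adenosylhomocysteine, rose by 1.3 ± 0.08 and Cbs by 0.91 ± 0.14, while Cth, the next enzyme of cysteine synthesis, fell by 1.04 ± 0.16 and Nnmt, which methylates nicotinamide, fell by 1.38 ± 0.25. Of 72 ribosomal protein genes 8 rose (3 without fed array 4 and 4 without fasted array 1) and 0 fell, and of 38 proteasome genes 0 rose and 6 fell, with Rps27 (0.68 ± 0.10) and Psmd14 (−0.51 ± 0.07) the largest.

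The response of WAT was then set against that of LIV and SM by testing the difference of the changes in the same fit, which left out fed LIV array 4 and fasted SM array 5. The tissues were taken from the same mice, and the fit treats their arrays as independent. The WAT change differed from the LIV change in 3019 genes (16.1%) and from the SM change in 2830 (15.1%). In 912 genes (4.86%), WAT was called and its change lay beyond that of both other tissues in the same direction, upward in 465 (2.48%) and downward in 447 (2.38%). Of the genes called in WAT, 79 rose and 66 fell in all 3 tissues, where 3.53% of genes rose and 4.01% fell in LIV and 7.8% rose and 5.78% fell in SM.

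Among the genes with the largest such differences were several already described. Asb12 changed by −4.53 ± 0.13 in WAT, 0.14 in LIV and −0.16 in SM (adjusted p of the differences 1.88e-15 and 9.77e-15). Irf4 changed by 0.04 in LIV and 0.55 in SM (6.98e-10 and 5.88e-09). Mc5r changed by −0.14 in LIV and fell by 1.13 in SM (1.21e-09 and 7.3e-12). Thbs2 changed by 0.32 in LIV and also rose in SM, by 0.64 (1.99e-11 and 1.53e-10). Abcg1 changed by −0.10 in LIV and 0.36 in SM (1.06e-10 and 2.89e-09). Pdk2 changed by −0.07 in LIV and −0.11 in SM (7.35e-13 and 6.32e-13), whereas Pdk4 rose in SM as well (0.90) and still differed from WAT (2.54e-08).

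The falls of this kind included Matn2 (0.19 in LIV and −0.35 in SM, adjusted p 2.59e-08 and 1.36e-06) and Gpt, alanine aminotransferase (−2.52 ± 0.10 in WAT, 0.35 in LIV and −0.15 in SM, 2.25e-13 and 7.3e-12). Lbp fell in WAT and rose in LIV (0.59), the organ known to make it for plasma, with 0.27 in SM (1.8e-06 and 1.82e-05). Tmem100, a membrane protein of endothelium, fell by 0.98 ± 0.13 in WAT and rose by 1.21 in LIV and 1.02 in SM (6.02e-09 and 2.3e-08). Vegfa rose in WAT, fell by 0.90 in SM and changed by −0.11 in LIV (0.000177 and 2.65e-09). Foxo1, not called in WAT, rose by 0.55 in LIV and 1.28 in SM (0.000116 and 6.24e-11).

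Other genes moved the same way in more than 1 tissue. Per1 rose by 1.66 in LIV and 1.41 in SM, and neither difference from WAT was called (0.248 and 0.827). Fam107a (1.83 in LIV and 1.71 in SM) and Klf15 (0.64 and 0.85) rose in both, and their differences from WAT were not called (0.764 and 0.542, 0.88 and 0.586). Aplnr fell in SM (−1.80) and changed by 0.10 in LIV, and it differed from WAT in LIV (1.21e-09) but was not called different in SM (0.317). Ddit4 rose in both, more in SM (4.15) and less in LIV (2.16) than in WAT (0.00376 and 0.0442). Sgk1, a glucocorticoid-induced gene, changed by 0.27 in LIV and −0.37 in SM and differed from both (2.86e-07 and 1.95e-10). Gbp2 fell by 0.75 in LIV and 0.81 in SM (0.723 and 0.856), and Col3a1 by 0.84 and 0.95 (0.865 and 0.623). Lep fell in SM too (−1.66), where the mean of the adipocyte markers ranged from 8.29 to 10.05, and the part of that spread in its fall was not tested.

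**Figure D4:**
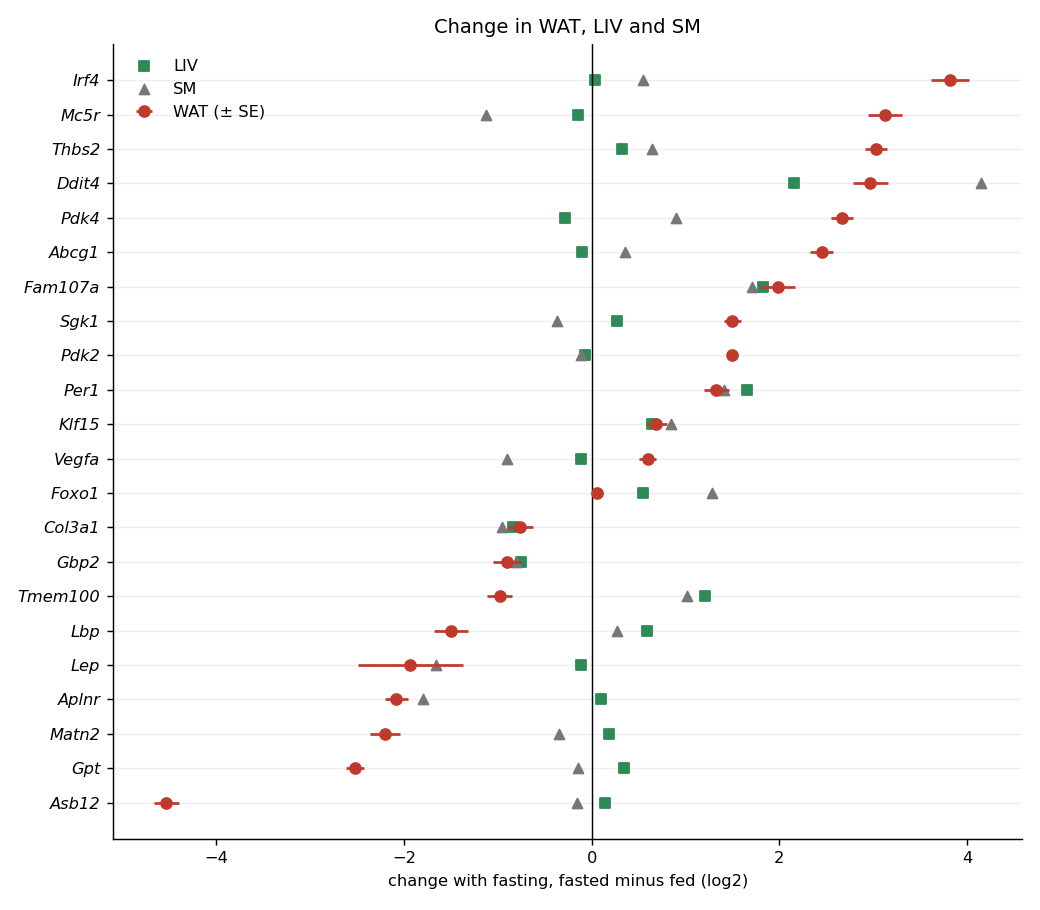
Change with fasting (log2, fasted minus fed, x axis) of 22 genes named in the text in WAT (red), LIV (green) and SM (grey), with lines of 1 SE of the fit for WAT. Asb12, Irf4 and Mc5r lie farther from 0 in WAT than in LIV and SM, Thbs2 rose in WAT and less in SM, and Per1, Fam107a and Klf15 lie close together in the 3 tissues.

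The fasted arrays differed in how far they lay from the fed ones. Over the 364 called genes with at least 2-fold change, fasted array 4 lay farthest along the direction of change among the 5 fasted arrays in 49.7% of genes and fasted array 5 least far in 44.2%. The median distance from the fed mean was 1.53 on fasted array 4, 1.38 on array 1, 1.24 on array 2, 1.23 on array 3 and 1.18 on array 5. These genes were called on the same arrays, so the distances are a description and carry no test. Lep (6.51 on array 4), Irf4 (11.03), Lbp (8.57) and Grb14 (5.64) all had their most changed value there, and Cyp2b10, a cytochrome P450 gene that rose by 2.46 ± 0.40, ranged from 5.49 to 8.95 in the fasted mice with its highest value on array 4. Among the fasted arrays, array 5 had the highest mean of macrophage (8.35), fibroblast (9.18), pericyte (8.55) and skeletal muscle markers (4.93), and the part of these in the smaller distances of that array was not tested.

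**Figure D5:**
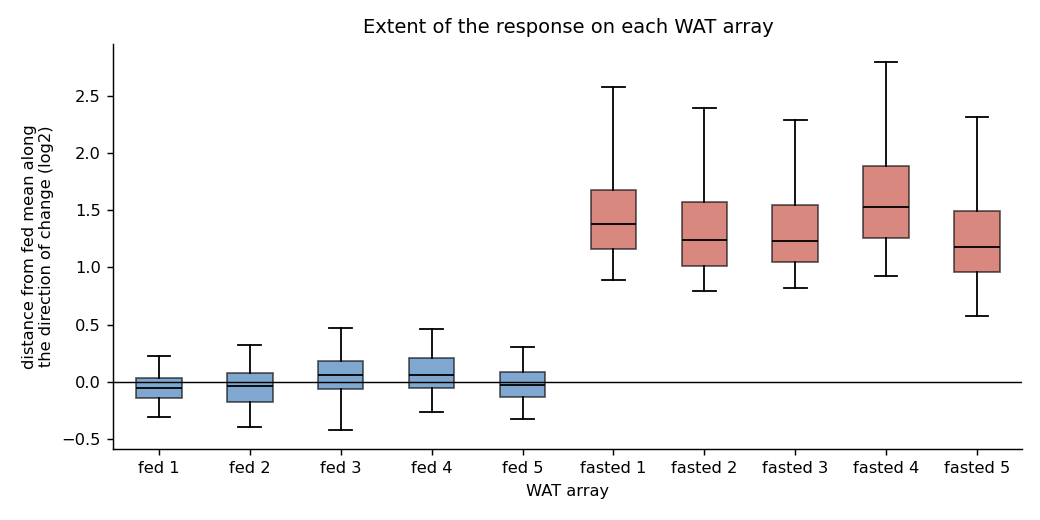
Distance from the fed mean along each gene's direction of change (log2, y axis) on each of the 10 WAT arrays (x axis) for the 364 called genes with at least 2-fold change, with the median as a line, the box spanning the middle 50% of genes and whiskers from the 5th to the 95th percentile. The median is highest on fasted array 4 (1.53) and lowest of the fasted arrays on array 5 (1.18), while fed arrays 3 and 4 lie slightly toward the fasted side (0.06).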

How the data were processed

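RNA from WAT, LIV and SM of fed and fasted mice was hybridised to Affymetrix Mouse Gene 1.1 ST arrays (150 ng per sample). The deposited table holds log2 values, which the authors made by robust multi-array averaging (RMA, Partek), with background correction, quantile normalisation and summary per probe set. It covers 28815 probe sets on 30 arrays, and 0 columns lacked a sample. Intensities before normalisation were not analysed here. RMA compresses changes of dim probe sets, and the number of arrays limits the precision. Of the probe sets, 21153 name 1 gene, 1867 several and 5795 are unnamed here. A gene was represented by its 1-gene probe set of highest mean (18781 genes).

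A linear model with 6 group means was fitted to 28 arrays in limma 3.58.1 (R 4.3.3), after the diet by tissue model of the methods. Fed LIV array 4 and fasted SM array 5 were left out. The methods leave out fasted SM array 1 in place of array 5, but in the deposited table array 5 stood apart (mean r with its group of 0.9803, against 0.9907 to 0.9919 for the other fasted SM arrays). With array 1 left out instead, 1463 genes rose in WAT and 1389 fell. Adjusted p-values in the text are from this moderated test with Benjamini-Hochberg adjustment over all 28815 probe sets. The threshold was 5.0% with a minimum change of 1.3-fold. The methods name 5 fed and 5 fasted mice from which the tissues were dissected, so WAT, LIV and SM share mice, and fed and fasted mice are different animals. The model treats the arrays as independent. With mouse as a random block, taking equal numbers within a diet as 1 mouse, which no label states, the WAT change differed from LIV in 1551 genes upward and 1495 downward (1536 and 1483 without it) and from SM in 1408 and 1473 (1384 and 1446). On simulated data, limma called 59 of 67 probe sets changed 1.5-fold, 65 of 67 changed 2-fold and 66 of 66 changed 3-fold. There were 9 false calls among the unchanged of the 28815 probe sets. The simulated errors were independent and normal, with the same spread in all tissues, as the model assumes. Far fewer probe sets were changed than the 3792 called in WAT, and spreads that differ between tissues were not simulated. These counts therefore do not give the error rates of the real data.

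The gene lists, landmarks and members were chosen with earlier results of these data known. Genes were named by a rule: the 25 largest rises and falls without overlap, up to 6 rises and 6 falls per list, a set of landmark genes, the 12 largest rises and falls that differed from LIV and SM, and the cell type markers. Cnr1, Col6a1, Ifit1, Sgk1, Tsc1, Tsc22d3, Usp29 and the miRNA genes were named after their values were seen. Some items are not reported here. Alternatives were other sets of arrays, blocks, weights, variances, normalisations, filters and thresholds, and leaving out each WAT array. Promoter and miRNA sequences are from RefSeq (GRCm38.p6), matched by symbol (14723 genes and 278 miRNA genes). Python 3.11.15 with numpy 2.4.6, pandas 2.3.3 and matplotlib 3.10.9 made the tables and plots.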

Additional observations from a re-analysis of the deposited data

Results flagged for a closer look

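Among the genes named above, 29 of 520 groups of 5 arrays held an array far from the other 4 by Dixon's criterion, and chance alone marks about 1 in 20 groups. Fed array 3 was the far one in 6 of these and fasted array 5 in 7. Fed array 1 held the lowest value of Iigp1 (6.76). Fed array 2 held the lowest value of Gadd45b (6.45). Fed array 3 held the highest value of Adamts4 (6.17), Cyp2b10 (5.38), Ffar2 (8.47), Nos2 (6.55) and Stc2 (7.62) and the lowest value of Ucp3 (7.10). Fed array 4 held the highest value of Mrc1 (9.25) and the lowest value of Srebf1 (8.84). Fed array 5 held the highest value of Insr (9.86) and the lowest value of Map2k6 (5.68) and Myc (7.14). Fasted array 1 held the highest value of Plin1 (12.19) and Tnf (3.81) and the lowest value of Cd163 (8.14). Fasted array 2 held the highest value of Klf4 (8.19). Fasted array 3 held the lowest value of Ifit1 (5.42). Fasted array 4 held the highest value of Ahcy (9.63), Maff (6.70) and Trp53inp1 (11.23) and the lowest value of Hcar1 (6.83). Fasted array 5 held the highest value of Bhlhe40 (5.63), Cd14 (7.10), Gbp7 (8.26), Psmd14 (9.20), Rgs5 (9.51) and S1pr3 (7.79) and the lowest value of Agtr1a (8.90).

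Of the genes set against the other tissues, these had a WAT change that differed by limma's test of the difference (log2, WAT minus LIV and then WAT minus SM). The difference was positive for Irf4 (3.78 and 3.27), Mc5r (3.27 and 4.26), Thbs2 (2.71 and 2.39), Abcg1 (2.56 and 2.09), Pdk2 (1.58 and 1.62), Pdk4 (2.95 and 1.77), Vegfa (0.71 and 1.49) and Sgk1 (1.23 and 1.87). It was negative for Asb12 (−4.67 and −4.37), Matn2 (−2.39 and −1.86), Gpt (−2.86 and −2.36), Lbp (−2.09 and −1.77), Tmem100 (−2.20 and −2.0) and Foxo1 (−0.49 and −1.22). It had both signs for Ddit4 (0.82 and −1.17). For Aplnr the difference from LIV alone was called (−2.17).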

How the results depend on the processing

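The counts of WAT calls stayed within 1.5 times under every alternative other than the minimum fold, and so did the counts of differences from LIV and SM where the alternative gave them. Leaving out 1 WAT array at a time gave 1817 to 2197 probe sets up and 1662 to 2020 down, and 1361 to 1656 genes up and 1328 to 1628 down. With no minimum fold, 4231 probe sets were called up and 3436 down (3068 and 2745 genes). With a minimum of 1.5-fold, 843 and 800 probe sets (662 and 658 genes) were called, 1087 and 947 (818 and 758 genes) for WAT minus LIV, and 1016 and 874 (729 and 718 genes) for WAT minus SM.

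Fed and fasted mice were different animals, and their same-numbered WAT arrays did not deviate together (r of −0.252 to 0.051). With the replicate block over the WAT arrays, 1924 probe sets were called up and 1675 down. Of the 221 called genes named in the text, 204 kept their call and direction under all alternatives run, and 17 fell below the minimum of 1.5-fold, of which Cry1 (0.55) also missed a false discovery rate of 1%. None changed sign. Angptl4, Klb, Npr3 and Pde3b were called in the WAT arrays alone and with the block, where the spread of the other tissues plays no part. Hcar2, Igf1, Tnf and Pnpla2, just under 1.3-fold, passed it without some arrays. For dim genes, a signal near background limits what a change can show.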
